A study of Mus musculus with 6 samples.

Results

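Cytotoxic lymphocytes kill a target cell with granules that hold granzymes and perforin, or with Fas ligand on their surface. The 8 genes described here code for such effectors: the granzymes Gzma, Gzmb, Gzmc, Gzmk and Gzmm, the pore-forming protein perforin (Prf1), the granule membrane protein Nkg7 and Fas ligand (Fasl). They were taken by symbol from the count matrices of CD45-positive cells and make up 8 of the 32285 genes measured. Each of the 8 symbols had 1 row.

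The study sequenced RNA of single cells from mouse skin to ask what the loss of an enhancer upstream of Il2ra, the gene of the IL-2 receptor alpha chain (CD25), does there. Its groups were mice with the enhancer deletion (UP_Del) that had lost hair (alopecia), mice with the same deletion and no hair loss (no alopecia), and C57BL/6 wild-type mice. All were untreated adult females of 17 to 18 weeks, and whole skin without hypodermis was digested for 2 hours and sorted into live CD45-positive cells (leukocytes) and CD45-negative cells. There was 1 library per group and sort, 6 in all. The genotype field of the labels reads C57/BL6 for every sample, and they do not say how many mice went into a library. The alopecia and no-alopecia groups share the deletion and differ in hair loss. With 1 library per group, no difference has a replicate check and no p-value was computed. Intervals in brackets (95%, exact Poisson for levels, conditional binomial for ratios, Clopper-Pearson for shares) cover counting error only.

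After filtering, 8852, 3234 and 6313 CD45-positive cells were left in the alopecia, no-alopecia and wild-type libraries, with median depths of 4082.5, 4827 and 4544 UMIs (unique molecular identifiers, which count captured mRNA molecules). Between 0.719% and 2.58% of the barcodes of the smaller library of a pair were also present in the other. Il2ra itself, whose coding part is not deleted, had 392, 387 and 943 CPM (a gene's UMIs as a part of all UMIs, brought to the same total for each class and library) in regulatory T-like cells of the alopecia, no-alopecia and wild-type libraries. Both deletion libraries were thus below the wild-type library.

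In mouse skin, dendritic epidermal T cells (DETC) with a gamma delta receptor sit in the epidermis, other gamma delta T cells and alpha beta T cells sit in the dermis, and natural killer (NK) and innate lymphoid cells are fewer. Granzymes are serine proteases stored in granules. Granzyme B cleaves caspases and other proteins of the target, granzyme A acts by another route, and granzyme C belongs to a rodent gene cluster beside Gzmb. Perforin opens the way into the target, and Fas ligand triggers the death receptor Fas. IL-2 and IL-15, whose receptors share chains, are known to raise Gzmb and Prf1 in T and NK cells, and CD25 adds high affinity for IL-2. In alopecia areata of mice and humans, CD8 T cells around the hair follicle are a known feature.

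On build GRCm38, Gzmb (chr14:56258838-56262260) and Gzmc (chr14:56231441-56234656) are neighbours on the minus strand with 24181 bases between them. Gzma (chr13:113093825-113100981) and Gzmk (chr13:113171608-113225908) lie 70626 bases apart, also on the minus strand. Prf1 (chr10:61297833-61304680) and Gzmm (chr10:79689020-79695261) are on the plus strand of chromosome 10, Nkg7 (chr7:43437073-43438249) is on the plus strand, and Fasl (chr1:161780689-161788495) is on the minus strand. Related granzymes can share reads: 35 of the 845 stretches of 50 bases in Gzmc transcripts (4.14%) also occur in transcripts of other genes. Gzme, Gzmg and Gzmd share the most of them. What this does to the Gzmc counts was not tested. The other 7 members shared none.

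The 250 bases before the start sites of Gzmb, Gzmc and Gzma are shown because these 3 granzymes, which include a pair of neighbours, were carried by different cells. They are from RefSeq on GRCm38.p6, written 5′ to 3′ on the gene's strand, and capitals mark the motif matches found on either strand: AP-1 (TGAGTCA) and the Runx core (TGTGGT, or ACCACA on the other strand). The windows are chr14:56262335-56262584 for Gzmb, chr14:56234658-56234907 for Gzmc and chr13:113100982-113101231 for Gzma.
Gzmb: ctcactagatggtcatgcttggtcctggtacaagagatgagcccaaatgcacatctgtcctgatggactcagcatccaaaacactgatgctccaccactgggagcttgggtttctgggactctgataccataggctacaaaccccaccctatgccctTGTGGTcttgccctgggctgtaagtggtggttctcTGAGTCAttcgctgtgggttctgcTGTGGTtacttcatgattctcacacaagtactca
Gzmc: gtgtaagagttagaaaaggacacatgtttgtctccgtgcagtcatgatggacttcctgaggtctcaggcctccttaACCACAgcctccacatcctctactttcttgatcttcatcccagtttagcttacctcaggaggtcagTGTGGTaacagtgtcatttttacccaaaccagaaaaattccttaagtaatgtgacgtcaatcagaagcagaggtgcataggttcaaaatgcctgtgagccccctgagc
Gzma: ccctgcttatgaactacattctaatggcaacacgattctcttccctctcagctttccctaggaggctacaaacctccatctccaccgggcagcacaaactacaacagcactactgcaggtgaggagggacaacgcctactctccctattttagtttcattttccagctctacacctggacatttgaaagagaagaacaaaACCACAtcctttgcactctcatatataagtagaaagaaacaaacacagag

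The Gzmb window held the AP-1 motif 58 bases before the start and the Runx core at 93 and 34 bases. The Gzmc window held the Runx core at 174 and 108 bases, and the Gzma window held it at 50 bases. No 2 matches overlapped. Over 32851 windows of the same length, 4.46% held the AP-1 motif and 14% the Runx core, motifs that were added after the windows had been seen. The STAT dimer (TTCNNNGAA, in 7.02% of windows) and the T-box core (GGTGTGA, in 3.33%) had no match in the windows of Gzma, Gzmb, Gzmc, Prf1 and Fasl. The STAT dimer was found in Nkg7 and 1 Gzmm window, and the T-box core in Nkg7, Gzmk and the other Gzmm window. A match is a string of letters and says nothing about binding.

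Cell classes come from clusters made without the 8 genes and named by marker genes. Clusters that no marker list named are called by their leading genes. The cluster called after Cd40lg and Cd4 had 4 hemoglobin genes among its leading genes, at 2256, 2.43 and 0.283 CPM together in the alopecia, no-alopecia and wild-type libraries, so it got no class name. Its high hemoglobin is that of the alopecia library, and its part in the values of this cluster was not tested. The effectors did not follow one common pattern over these classes. Gzma was carried by NK-like cells, Gzmb by CD8 T-like, regulatory T-like and NK-like cells, Gzmc by 4 clusters that no marker list named, Prf1 by NK-like and DETC-like cells, and Fasl by NK-like and CD8 T-like cells, a cluster with Cd40lg and Cd4 in the lead and the cluster led by Slc35f3 and Klra7. Nkg7 was present in most of these, but there was little of it in regulatory and dermal gamma delta T-like cells. The carriers named for the other genes are the classes with the highest levels, and further classes held part of the UMIs.

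**Figure D1:**
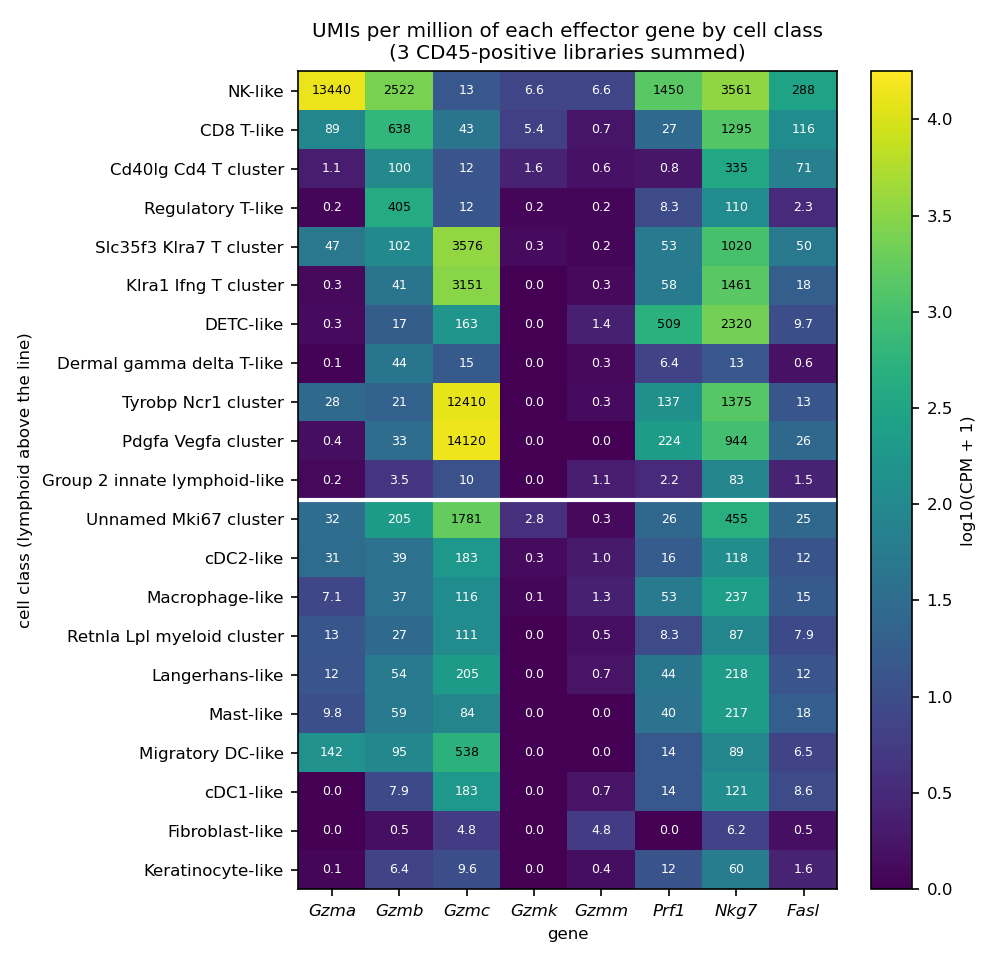
Heat map of the level of each of the 8 genes (columns) in cell classes (rows, lymphoid above the white line), as scaled UMI counts (CPM) over the 3 CD45-positive libraries summed; colour is log10(CPM + 1) and the numbers are CPM. Gzma stands at 13440 CPM in NK-like cells and Gzmc at 14120 CPM in the cluster led by Pdgfa and Vegfa, while Gzmk and Gzmm are near 0 in most rows.

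Granzyme A was carried mostly by a few NK-like cells. NK-like cells had 14340 (13840 to 14870), 10260 (9222 to 11380) and 12070 (11200 to 13000) CPM of Gzma in the alopecia, no-alopecia and wild-type libraries. The level per cell class was thus of the same order in all 3, in the 56, 9 and 11 cells that formed the class. Those cells were 0.633%, 0.278% and 0.174% of the libraries' kept cells and held 83.5%, 65.3% and 50.4% of the Gzma UMIs. After each cell was thinned to 1000 UMIs, so that cells were compared at an equal depth, 75 of 76 NK-like cells had a Gzma UMI. The richest 1% of cells held 99.7%, 100% and 99.3% of the gene's UMIs in the alopecia, no-alopecia and wild-type libraries.

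Outside NK-like cells, Gzma was in a small part of the cells of other classes. With NK-like cells included, 99, 20 and 73 cells had a Gzma UMI in the alopecia, no-alopecia and wild-type libraries. CD8 T-like cells had 23.0 CPM in the alopecia library, 0 UMIs in the no-alopecia library (a limit of 11.4 CPM) and 121 CPM in the wild-type library. The cluster led by Slc35f3 and Klra7 had 64.6, 8.25 and 57.2 CPM in the alopecia, no-alopecia and wild-type libraries. Both classes thus had their lowest value in the no-alopecia library. The cDC2-like cells held 1.06%, 27.0% and 8.71% of all Gzma UMIs in the alopecia, no-alopecia and wild-type libraries. In the no-alopecia library these UMIs lay in 3 of the 375 cells of the class, 93 of them in 1 cell. Of the cDC2-like cells, 46.8%, 49.3% and 61.0% carried 3 or more UMIs of receptor-complex genes of T cells in the alopecia, no-alopecia and wild-type libraries, so the class is not free of lymphocyte RNA. What part this had in the Gzma counts was not tested.

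Granzyme B had several carriers, and they ranked differently in the libraries. CD8 T-like cells had 170 (138 to 208), 274 (215 to 346) and 824 (784 to 866) CPM of Gzmb in the alopecia, no-alopecia and wild-type libraries. Regulatory T-like cells, which can use granzyme B to restrain other cells, had 344 (322 to 368), 473 (427 to 523) and 455 (426 to 486) CPM. CD8 T-like cells were therefore above regulatory T-like cells in the wild-type library and below them in both deletion libraries. NK-like cells had 2912 (2685 to 3152), 1672 (1269 to 2161) and 1621 (1310 to 1984) CPM, highest in the alopecia library. A cluster led by the proliferation gene Mki67 had 118, 131 and 318 CPM of Gzmb in the alopecia, no-alopecia and wild-type libraries, again with wild type highest.

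As shares of all Gzmb UMIs, CD8 T-like cells held 3.45%, 6.53% and 30.7% in the alopecia, no-alopecia and wild-type libraries. Regulatory T-like cells held 31.3%, 34.5% and 17.0%, and NK-like cells 21.9%, 5.26% and 1.80%. The carrier with the largest share was regulatory T-like cells in both deletion libraries and CD8 T-like cells in the wild-type library. Dermal gamma delta T-like cells held 6.79%, 11% and 2.65%, with levels of 37.3, 70.9 and 40.7 CPM. Of the 2785, 1103 and 5213 Gzmb UMIs in these libraries, the cluster led by Slc35f3 and Klra7 held 117, 83 and 439. The Cd40lg and Cd4 cluster held 71, 23 and 541. DETC-like cells held few Gzmb UMIs: 7 of 747 thinned cells (0.937%) had one.

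**Figure D2:**
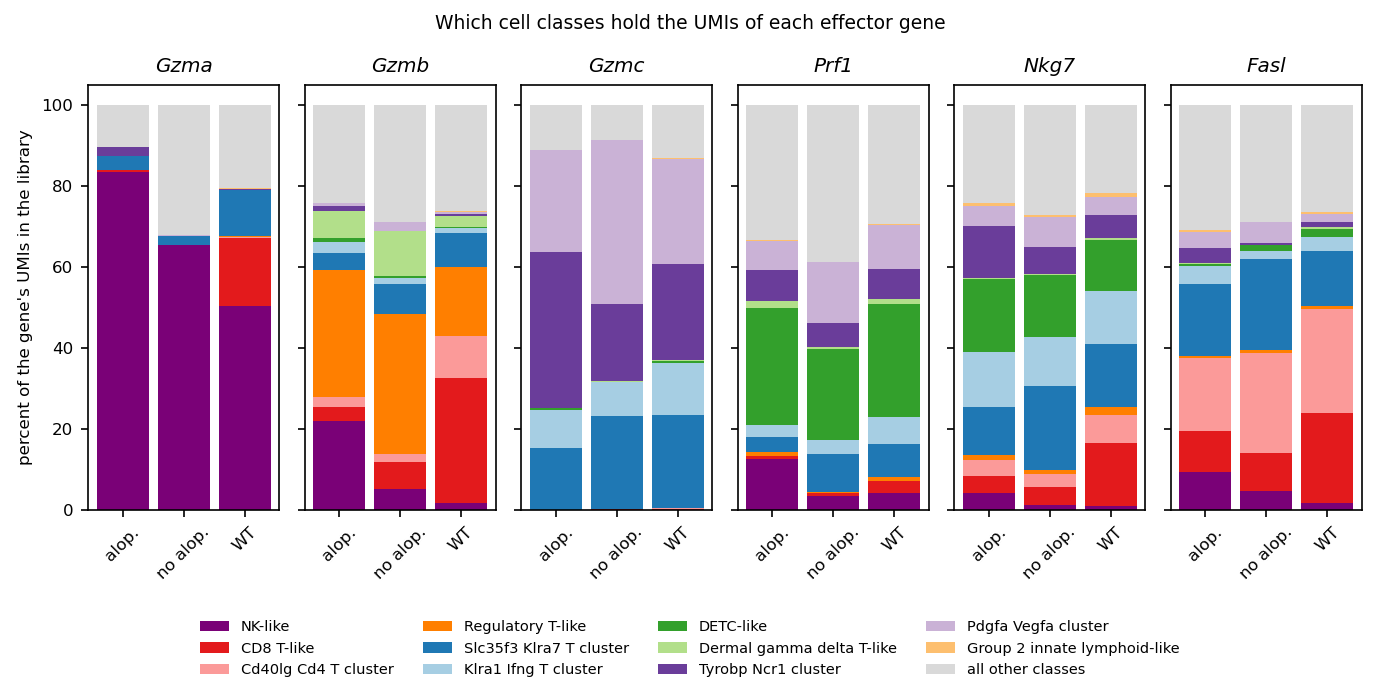
Percent of each gene's UMIs (vertical axis) held by each cell class (colours) in the alopecia, no-alopecia and wild-type CD45-positive libraries, for the 6 genes with enough UMIs. The Gzma bars are mostly NK-like (83.5%, 65.3% and 50.4%), and the CD8 T-like part of the Gzmb bar is 3.45%, 6.53% and 30.7%.

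Granzyme C was carried by clusters with little of the other granzymes. In the cluster led by Pdgfa and Vegfa, Gzmc was at 15540, 14450 and 12280 CPM in the alopecia, no-alopecia and wild-type libraries, and 91.3%, 93.8% and 90% of its thinned cells had a Gzmc UMI. In the cluster led by Tyrobp and Ncr1, the levels were 13130, 10550 and 11690 CPM and the shares 79.9%, 89.1% and 79.5%. Both clusters thus carried the gene in most cells of every library. Neither matched a marker list, and Cd3e stood at 147 CPM in the Tyrobp and Ncr1 cluster and 21.9 CPM in the Pdgfa and Vegfa cluster, with Ncr1 at 99.3 and 54.1 CPM. Of their cells, 72.3%, 70.9% and 65.3% (Tyrobp and Ncr1) and 70.6%, 76.6% and 71% (Pdgfa and Vegfa) carried 3 or more UMIs of those receptor-complex genes, a list that includes Cd247 of NK cells, in the alopecia, no-alopecia and wild-type libraries.

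A further pair of T clusters carried Gzmc in part of their cells. The cluster led by Slc35f3 and Klra7 had 4600, 2868 and 3263 CPM in the alopecia, no-alopecia and wild-type libraries, and 45.1%, 41.7% and 40.6% of thinned cells with a UMI. The cluster led by Klra1 and Ifng had 3394, 2471 and 3188 CPM, and 38.2%, 30.2% and 42.5% of cells. In both the alopecia library had the highest level and the no-alopecia library the lowest. NK-like cells had 13 CPM of Gzmc over the 3 libraries, and 0 of 76 thinned cells had a UMI, which allows a share of up to 3.95%. Single cells reached 660, 523 and 712 Gzmc UMIs in the alopecia, no-alopecia and wild-type libraries.

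Granzymes K and M were at the limit of detection. Gzmk, which marks a subset of memory CD8 T cells, had 20, 6 and 19 UMIs in the alopecia, no-alopecia and wild-type libraries, 15 of the 45 in CD8 T-like cells. There it had 11 UMIs in 4 of 143 alopecia cells, 6 of them in 1 cell, 0 in 60 no-alopecia cells and 4 UMIs in 4 of 439 wild-type cells. That is 19.5 CPM in the alopecia and 2.06 CPM in the wild-type library, a ratio of 9.44 (2.80 to 40.7), below the count minimum set for a call. Gzmm, a granzyme of NK cells in other tissues, had 33, 13 and 29 UMIs, spread over lymphoid, myeloid and stromal classes, with 10 of them in fibroblast-like cells. In the CD45-negative libraries Gzmm had 38, 76 and 34 UMIs, or 1.03, 0.743 and 1.44 CPM, above its 0.714, 0.666 and 0.791 CPM in CD45-positive cells. Neither gene reached the count minimum in any lymphoid class compared.

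Perforin was carried by NK-like cells and, unlike Gzma or Gzmb, by DETC-like cells. NK-like cells had 1594, 1009 and 1190 CPM of Prf1 in the alopecia, no-alopecia and wild-type libraries. DETC-like cells had 568 (529 to 609), 443 (387 to 504) and 461 (420 to 505) CPM, and 44.2%, 33.6% and 37.4% of their thinned cells had a UMI. In both classes the alopecia library was the highest. The Pdgfa and Vegfa cluster had 199, 277 and 216 CPM and the Tyrobp and Ncr1 cluster 123, 165 and 157 CPM, with the alopecia library lowest. DETC-like cells held 29.1%, 22.4% and 27.9% of all Prf1 UMIs in the alopecia, no-alopecia and wild-type libraries. Myeloid classes together held 19.2%, 17.6% and 18.1%, with macrophage-like cells at 53.3 CPM over the 3 libraries. What part lymphocyte RNA had in this was not tested. CD8 T-like cells had 35.4, 26.7 and 25.3 CPM, and the Cd40lg and Cd4 cluster had 5 Prf1 UMIs in 1588 cells, with none among its 1549 thinned cells.

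Nkg7, needed for granule release, was the most widespread of the 8 in terms of cells: 22.5%, 22.5% and 27.6% of thinned cells of the alopecia, no-alopecia and wild-type libraries had a UMI. In DETC-like cells it stood at 2590, 2281 and 1972 CPM, and 87.9%, 87.6% and 82.7% of thinned cells had a UMI. CD8 T-like cells had 1471, 1276 and 1246 CPM and shares of 72.1%, 61.7% and 66.7%. Thus the CD8 T-like cells of the deletion libraries, low in Gzmb, were not low in Nkg7. Dermal gamma delta T-like cells, at 13 CPM over the 3 libraries, and regulatory T-like cells, at 110 CPM, were the T classes with least Nkg7.

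Fas ligand was spread over CD8 T-like cells, the Cd40lg and Cd4 cluster, the Slc35f3 and Klra7 cluster and NK-like cells, with the highest level in the last. CD8 T-like cells had 106, 111 and 120 CPM of Fasl in the alopecia, no-alopecia and wild-type libraries, close to each other. The Cd40lg and Cd4 cluster had 53.4, 90.9 and 76.1 CPM, lowest in the alopecia library. NK-like cells had 263, 404 and 310 CPM, from few cells. Regulatory T-like cells had nearly none: 2 of 1464 thinned cells (0.137%) had a Fasl UMI. The Cd40lg and Cd4 cluster held 18.0%, 24.7% and 25.7% and CD8 T-like cells 10.1%, 9.54% and 22.2% of Fasl UMIs, and the cluster led by Slc35f3 and Klra7 17.7%, 22.4% and 13.7%, in the alopecia, no-alopecia and wild-type libraries.

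**Figure D3:**
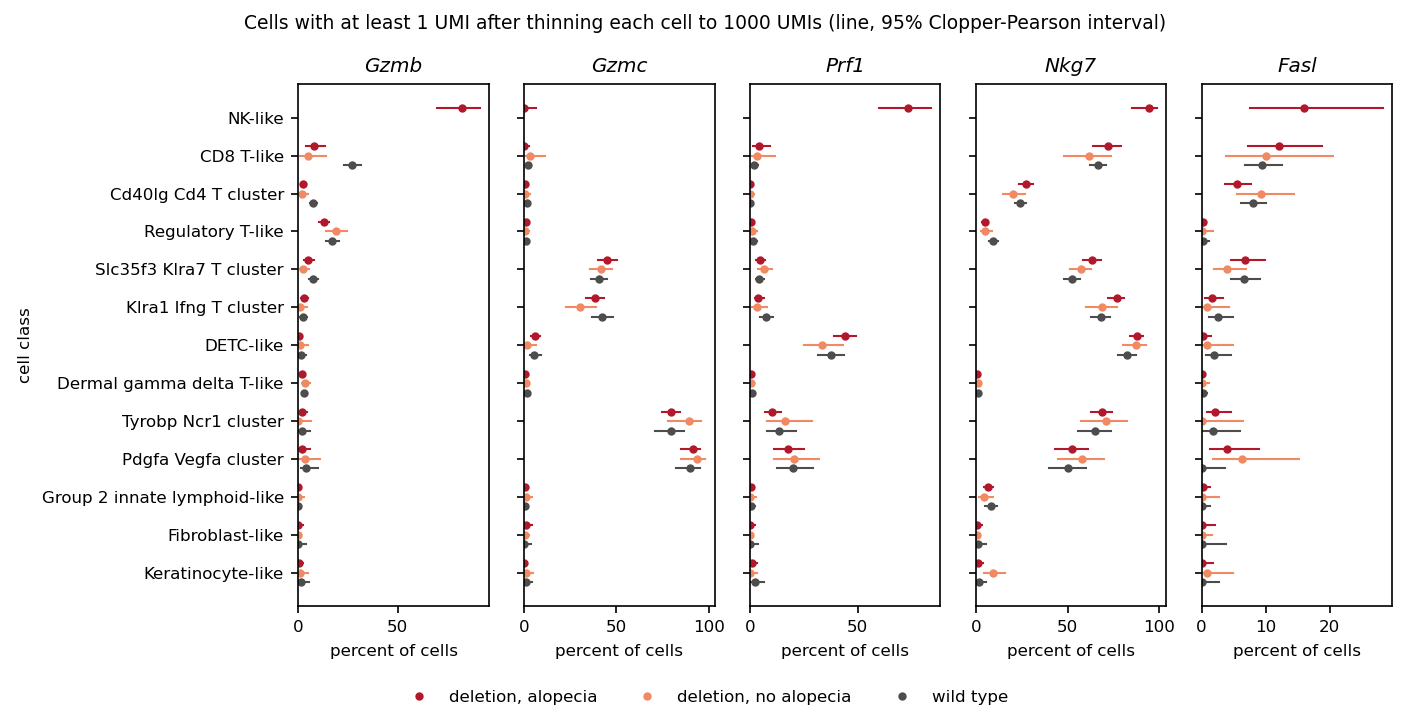
Percent of cells with at least 1 UMI (horizontal axis) of 5 of the genes after each cell was thinned to 1000 UMIs, by cell class (rows) and library (colours), with 95% Clopper-Pearson intervals; classes under 20 thinned cells are left out. Gzmb in CD8 T-like cells is at 7.86% in the alopecia, 5% in the no-alopecia and 26.9% in the wild-type library, while fibroblast-like and keratinocyte-like cells lie near 0 for most genes.

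Free RNA can place UMIs in cells that do not express a gene, so fibroblast-like and keratinocyte-like cells of the same libraries serve as the background. Over the 3 libraries, 0 of 501 thinned fibroblast-like cells had a Gzma, Gzmb, Prf1 or Fasl UMI (up to 0.599% each), and 0.599% had a Gzmc and 0.599% an Nkg7 UMI. Of 459 keratinocyte-like cells, 0.872% had Gzmb, 0.436% Gzmc, 1.09% Prf1, 3.27% Nkg7 and 0.218% Fasl. Nkg7 in keratinocyte-like cells was at 1.40%, 9.09% and 1.49% in the alopecia, no-alopecia and wild-type libraries, so the background there was highest in the no-alopecia library. Keratinocyte-like cells are the less clean of the pair: 23.1%, 37.5% and 30.1% of them carried 3 or more receptor-complex UMIs of T cells in the alopecia, no-alopecia and wild-type libraries, against 2.69%, 1.18% and 1.98% of fibroblast-like cells. Median depths were 3328 UMIs in fibroblast-like, 12200 in keratinocyte-like, 4126 in CD8 T-like and 3731 in NK-like cells. The Gzmb share of DETC-like cells (0.937%) was near that of keratinocyte-like cells and above the limit from fibroblast-like cells. The Nkg7 shares of dermal gamma delta T-like cells (0.507%, 0.904% and 1.25% in the alopecia, no-alopecia and wild-type libraries) lay near those of fibroblast-like cells (0.571%, 0.431% and 1.06%). Myeloid classes lay above this background: any granzyme was in 7.44% of cDC2-like, 8.53% of macrophage-like and 10.8% of mast-like thinned cells. Langerhans-like cells had 7.62%, migratory DC-like 7.69%, cDC1-like 4% and the Retnla and Lpl cluster 3%. In the alopecia library, CD8 T-like cells (8.57%) lay near mast-like cells (8.09%). What part free RNA had in these shares was not tested.

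In the CD45-negative libraries, Gzma had 0 UMIs in 4817, 14447 and 3293 cells of the alopecia, no-alopecia and wild-type groups, which allows up to 0.0816, 0.0293 and 0.127 CPM. Gzmc was at 0.163, 0.0978 and 0.127 CPM there, Prf1 at 0.109, 0.166 and 0.338 CPM and Nkg7 at 0.299, 0.235 and 0.718 CPM. All are far below the CD45-positive libraries.

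The members differed in how often they were found in the same cells. Of 17558 thinned CD45-positive cells, 15.2% had a UMI of any granzyme, and 1.46% had both a granzyme and Prf1. Prf1 stood at 52.3 CPM over all these libraries, at 1450 CPM in NK-like, 509 CPM in DETC-like and 27.5 CPM in CD8 T-like cells. These levels are means over all cells of a set, with or without the mRNA. They do not show how many expressing cells lack a UMI after thinning, which was not tested. Joint shares are limited by detection all the same, and a cell without a Prf1 UMI need not lack its mRNA. In NK-like cells the share with both a granzyme and Prf1 was 73.7%, and 90.8% of these cells had at least 3 of the 8 genes. In the Pdgfa and Vegfa cluster 17.6% had both, in the Tyrobp and Ncr1 cluster 8.67%, and in DETC-like cells 2.01%. CD8 T-like cells came to 0.945%, regulatory T-like cells to 0.137%, and the Cd40lg and Cd4 cluster and dermal gamma delta T-like cells to 0.

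Gzma and Gzmb went together over all classes: 84 of 125 cells with Gzma (67.2%) also had Gzmb, against 4.20% of cells without it. Most of the cells with Gzma were NK-like, a class with 2522 CPM of Gzmb. The figure therefore largely reflects that class and does not show that the genes go together in other cells. Gzmc and Gzmb did not: 4.22% of 1874 cells with Gzmc had Gzmb, against 4.70% of cells without it. Gzmc cells had Gzma in 0.374% of cases and Nkg7 in 56.6%, against 20.4% Nkg7 among cells without Gzmc. Of 823 cells with Prf1, 68.8% had Nkg7, against 22.1% of cells without Prf1. Among 131 CD8 T-like cells with Gzmb, 3.82% had Prf1, against 2.38% of the CD8 T-like cells without Gzmb. These shares are counts of cells pooled over libraries, and over classes except for the CD8 T-like shares. They carry no test.

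Over 65 sums of a class in a library, the level of Prf1 on a log2(CPM + 1) scale followed that of Nkg7 with Pearson r = 0.799, Nkg7 followed Fasl with 0.726 and Gzmb followed Fasl with 0.656. Gzmb and Gzmc had r = 0.164. The sums share libraries and cell depth, and the values are a description. Among all well-measured genes, those most alike in pattern were Ccl5, Mirt1 and Ccl4 for Gzma (r = 0.635, 0.584 and 0.574), and H2-Q7, Sh2d1a and H2-Q6 for Gzmb (0.759, 0.745 and 0.737). Sh2d1b1, Cdh17 and Xcl1 were most alike to Gzmc (0.888, 0.837 and 0.831), and the NK receptor genes Klrd1 and Cd244a and the gene Mctp2 to Prf1 (0.886, 0.872 and 0.856). For Nkg7 they were Ctla2b, Ctsw and Prkch (0.886, 0.884 and 0.884). For Fasl they were Tbx21, which codes for the factor T-bet, the cytokine gene Ifng, and Gm2682 (0.846, 0.825 and 0.799).

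Over all CD45-positive cells, the deletion libraries had less Gzmb and Fasl than the wild-type library, and the alopecia library had more Gzma than both others. Gzma was at 77.8 (75.3 to 80.4), 27.9 (25.6 to 30.4) and 37.9 (35.9 to 39.9) CPM in the alopecia, no-alopecia and wild-type libraries. Gzmb was at 60.2 (58.0 to 62.5), 56.5 (53.3 to 60.0) and 142 (138 to 146) CPM. Fasl was at 12.8 (11.8 to 13.9), 15.6 (13.9 to 17.4) and 28.5 (26.8 to 30.3) CPM. The deletion libraries lay close together for Gzmb and Fasl, and the alopecia library stood apart for Gzma.

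The other members with enough UMIs varied less. Gzmc was at 1263, 1010 and 1068 CPM in the alopecia, no-alopecia and wild-type libraries, Prf1 at 57.9, 51.9 and 45.4 CPM, and Nkg7 at 424, 394 and 428 CPM. For Gzmc and Prf1 the alopecia library was highest, by less than 1.5-fold over either of the others.

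**Figure D4:**
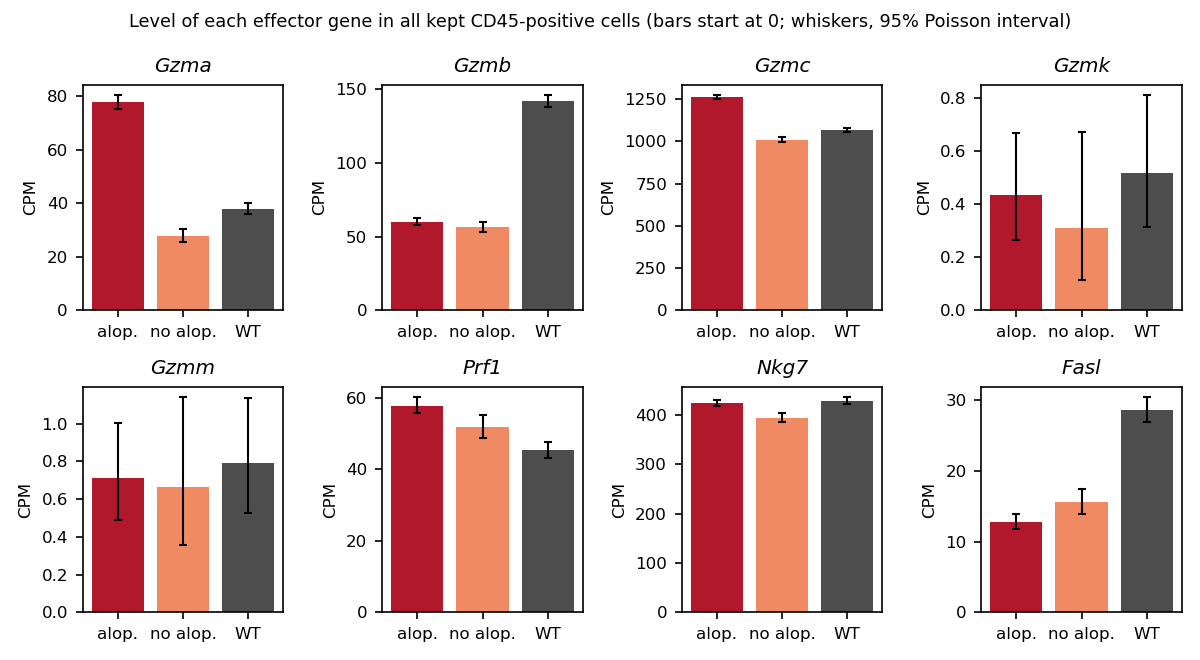
Level of each of the 8 genes (vertical axes, CPM, starting at 0) in all kept CD45-positive cells of the alopecia, no-alopecia and wild-type libraries, with 95% Poisson intervals for counting error. Gzmb stands at 60.2 and 56.5 CPM in the deletion libraries and 142 CPM in the wild-type library, and Gzma at 77.8 CPM in the alopecia library, above 27.9 and 37.9 CPM.

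A gene was counted as higher or lower when its CPM ratio reached 1.5-fold and the summed count of the pair was at least 50. Between alopecia and no alopecia, 1 of 6 members was higher, Gzma, with a ratio of 2.79 (2.55 to 3.05). None was lower by that measure. Of all 14841 genes tested, 7.38% were higher and 5.87% lower. Between alopecia and wild type, 1 of 7 members was higher, Gzma, with a ratio of 2.05 (1.93 to 2.19), beside 8.33% of all genes. In that comparison 2 were lower, Gzmb with a ratio of 0.424 (0.405 to 0.444) and Fasl with 0.449 (0.406 to 0.497), beside 4.19% of all genes.

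Between no alopecia and wild type, 0 of 6 members were higher, beside 7.63% of all genes. The 2 lower members were again Gzmb, with a ratio of 0.398 (0.373 to 0.425), and Fasl, with 0.546 (0.479 to 0.621), beside 5.50% of all genes. Gzma had a ratio of 0.737 (0.667 to 0.815) there. Comparisons with wild type share its 1 library, so they are not independent of each other. As shares of thinned cells with a UMI, Gzmb was in 3.37% (2.99% to 3.78%), 3.14% (2.55% to 3.82%) and 7.16% (6.53% to 7.84%) of cells in the alopecia, no-alopecia and wild-type libraries, and Fasl in 1.57%, 1.70% and 3.23%. Before thinning these shares were 7.21%, 7.95% and 14.7% for Gzmb and 4.94%, 6.65% and 11.8% for Fasl, in the same order of libraries.

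The make-up of the libraries differed too. CD8 T-like cells were 1.62%, 1.86% and 6.95% of kept cells in the alopecia, no-alopecia and wild-type libraries, the Cd40lg and Cd4 cluster 6.34%, 5.84% and 13.3%, and regulatory T-like cells 8.59%, 6.77% and 8.22%. When each class was given its mean share of cells in every library, Gzmb was at 56.9, 64.6 and 114 CPM in the alopecia, no-alopecia and wild-type libraries, so it remained lower in both deletion libraries by at least 1.5-fold. Fasl then came to 15.8, 18.0 and 23.1 CPM, within 1.5-fold of each other. Gzma came to 51.4, 31.5 and 55.5 CPM, which put the alopecia library just below wild type. The no-alopecia library was then below both others past 1.5-fold (log2 ratio 0.70 for alopecia over no alopecia, -0.81 for no alopecia over wild type). Without NK-like cells, the Gzma log2 ratio was 0.41 between alopecia and no alopecia and -0.55 between alopecia and wild type, against 1.48 and 1.04 with them. The alopecia excess of Gzma in whole libraries was therefore no longer past 1.5-fold without the 56, 9 and 11 NK-like cells.

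Ratios within a class were taken where both libraries had at least 100 cells, which left 7 lymphoid classes between alopecia and no alopecia, 10 between alopecia and wild type and 7 between no alopecia and wild type. Between alopecia and wild type, 10 of 41 pairs of a class and a member were lower and 2 higher, beside 4.57% lower and 5.24% higher among the pairs of a class and any gene in the same classes. Between no alopecia and wild type, 10 of 23 were lower and 1 higher, beside 7.79% and 5.37%. Between alopecia and no alopecia, 6 of 22 were higher and 3 lower, beside 8.98% and 5.12%. Pairs that share a gene or a library are not independent.

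**Figure D5:**
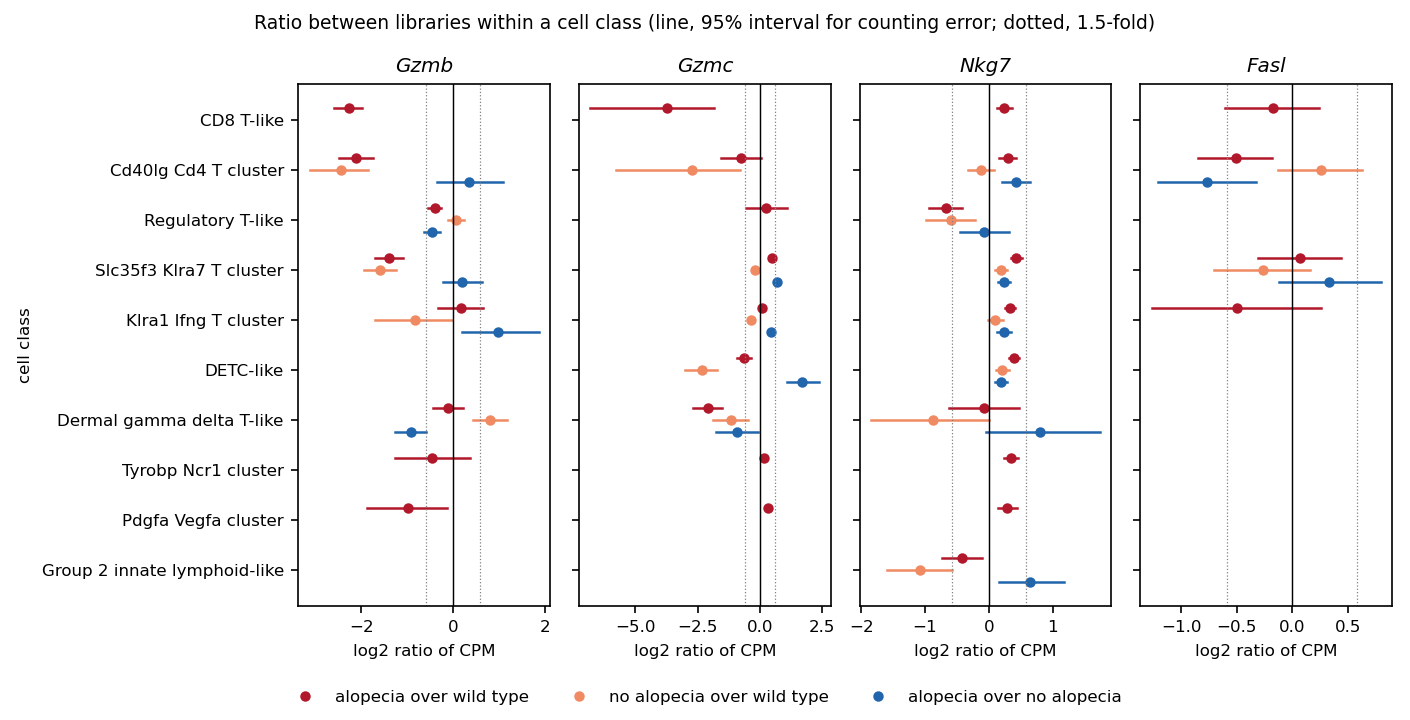
Log2 ratio of CPM between libraries (horizontal axis) of Gzmb, Gzmc, Nkg7 and Fasl within lymphoid classes (rows), for alopecia over wild type, no alopecia over wild type and alopecia over no alopecia (colours), with 95% intervals for counting error and dotted lines at 1.5-fold. In CD8 T-like cells Gzmb lies at -2.28 between alopecia and wild type and Fasl near 0, while in regulatory T-like cells Gzmb stays inside the dotted lines.

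In CD8 T-like cells, 3 granzymes were lower in the alopecia library than in the wild-type library, and Prf1, Nkg7 and Fasl were within 1.5-fold. Gzmk went the other way on 15 UMIs, too few for a call. Gzmb was at 170 CPM in the alopecia and 824 CPM in the wild-type library, a ratio of 0.206 (0.166 to 0.253). Gzma was at 23.0 and 121 CPM, a ratio of 0.191 (0.100 to 0.333), and Gzmc at 3.54 and 46.9 CPM, a ratio of 0.0755 (0.00900 to 0.281). Of all genes in this class, 8.07% were lower in that comparison. The Gzma difference rests on 2 of 143 alopecia and 22 of 439 wild-type cells with a UMI. In the no-alopecia library Gzmc was at 99.1 CPM, above wild type, from 60 cells, too few for a ratio. When cells were classed by their own marker UMIs, Gzmc was higher in the alopecia than in the wild-type library (log2 0.43).

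The CD8 T-like Gzmb difference was also one of cells: 11 of 140 thinned alopecia cells (7.86%, 3.99% to 13.6%) had a UMI, against 117 of 435 wild-type cells (26.9%, 22.8% to 31.3%). The no-alopecia library had 60 such cells, too few for a ratio, with 5% of them positive. Fasl in this class had a ratio of 0.888 (0.657 to 1.18) and Prf1 of 1.40 (0.789 to 2.40) between alopecia and wild type. Their intervals span 1, so at this depth no difference was detectable in either.

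In the Cd40lg and Cd4 cluster, Gzmb was at 35.4, 27.9 and 153 CPM in the alopecia, no-alopecia and wild-type libraries. The ratio to wild type was 0.231 (0.178 to 0.297) for alopecia, where 3.29% of all genes were lower, and 0.182 (0.115 to 0.276) for no alopecia, where 7.59% were. When cells were classed by marker UMIs the no-alopecia log2 ratio was -0.12, so that call depends on how the class was drawn. Gzmc was also lower in both, at 9.47, 2.43 and 15.8 CPM, with a ratio of 0.598 (0.336 to 1.02) for alopecia and 0.153 (0.0181 to 0.580) for no alopecia, from 2 UMIs. The alopecia ratio of Gzmc had the opposite sign when cells were classed by marker UMIs (log2 0.65). Fasl was lower in alopecia than in no alopecia, with a ratio of 0.587 (0.433 to 0.799), beside 5.66% of all genes, and its log2 ratio was -0.49 in cells classed by marker UMIs, against -0.77.

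Regulatory T-like cells, which depend on CD25 for IL-2, differed in Gzmb by less than 1.5-fold. Their ratios to wild type were 0.756 (0.687 to 0.831) for alopecia and 1.04 (0.919 to 1.17) for no alopecia. The share of thinned cells with a Gzmb UMI was 12.9% (10.5% to 15.5%), 18.8% (13.8% to 24.7%) and 17.0% (13.8% to 20.5%) in the alopecia, no-alopecia and wild-type libraries, with overlapping intervals. Nkg7 was lower in both deletion libraries, at 89.7, 94.6 and 143 CPM. The ratio was 0.628 (0.524 to 0.751) for alopecia, beside 3.15% of all genes, and 0.662 (0.507 to 0.856) for no alopecia, beside 6.79%. Without doublet removal these log2 ratios were -0.39 and -0.26, against -0.67 and -0.59.

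In the cluster led by Slc35f3 and Klra7, Gzmb was at 60.5, 52.6 and 159 CPM in the alopecia, no-alopecia and wild-type libraries. The ratio was 0.381 (0.308 to 0.468) for alopecia against wild type, where 3.35% of all genes were lower, and 0.331 (0.259 to 0.420) for no alopecia against wild type, where 4.20% were. Both deletion libraries were thus below the wild-type library. Gzmc and Gzma were higher in alopecia than in no alopecia, with ratios of 1.60 (1.55 to 1.66) and 7.84 (4.42 to 15.1), beside 3.74% of all genes. Gzma was lower in no alopecia than in wild type, with a ratio of 0.144. The Gzma values rest on 6 alopecia and 3 no-alopecia cells, and another clustering seed gave a log2 ratio of -1.21 between them. With the 8 genes kept among those used for clustering, the Gzmc log2 ratio was 0.44.

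In the cluster led by Klra1 and Ifng, Gzmb was at 47.5, 24 and 42.5 CPM in the alopecia, no-alopecia and wild-type libraries, with the no-alopecia library lowest. The ratio of alopecia to no alopecia was 1.98 (1.14 to 3.63), beside 5.88% of all genes, and that of no alopecia to wild type was 0.565 (0.306 to 0.986), beside 7.38%. As a mean over cells the log2 ratios were 0.56 and -0.16, both within 1.5-fold. In the Pdgfa and Vegfa cluster, Gzmb was at 20.03 CPM in alopecia and 39.8 CPM in wild type, a ratio of 0.503 (0.270 to 0.911), beside 4.54% of all genes. In the Tyrobp and Ncr1 cluster, Gzma was at 45.6 CPM in alopecia and 3.79 CPM in wild type, a ratio of 12 (3.96 to 59.5), beside 5.68% of all genes. Of its 78 alopecia UMIs, 74 were in 1 cell, and without the top cell of each library the log2 ratio was -0.71.

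Of the cells in the dermal gamma delta T-like class, 195 passed the marker-UMI rule of that class and 220 that of DETC. The DETC rule accepts a UMI of Tcrg-V5 or of Trdv4, so the rules and the clusters disagreed on these cells. Tcrg-V5 itself was at 1436 CPM in DETC-like cells and at 38.7, 42.7 and 13.6 CPM in the clusters of the dermal class. In the gamma delta classes the granzymes stood at low levels. Dermal gamma delta T-like cells had Gzmb at 37.3, 70.9 and 40.7 CPM in the alopecia, no-alopecia and wild-type libraries, so the no-alopecia library was the high one. The ratio of alopecia to no alopecia was 0.527 (0.417 to 0.668), where 4.72% of all genes were lower. That of no alopecia to wild type was 1.74 (1.35 to 2.24), where 3.33% were higher. Gzmc was at 6.72, 12.9 and 28.6 CPM, lowest in alopecia. Its ratio was 0.521 (0.296 to 0.936) to no alopecia and 0.235 (0.154 to 0.350) to wild type, where 4.10% of all genes were lower. Between no alopecia and wild type it was 0.450 (0.270 to 0.721), where 9.83% were lower.

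The other calls in dermal gamma delta T-like cells were small and had wide intervals. Nkg7 was at 14.2, 8.20 and 15 CPM in the alopecia, no-alopecia and wild-type libraries. Its ratio of alopecia to no alopecia was 1.74 (0.970 to 3.33), beside 12.5% of all genes, and of no alopecia to wild type 0.545 (0.279 to 1.00). Prf1 was at 8.10 CPM in alopecia and 5.31 CPM in wild type, a ratio of 1.53 (0.857 to 2.82), beside 4.79% of all genes. Without doublet removal, the log2 ratios between no alopecia and wild type were -0.0065 for Gzmb, 0.87 for Gzmc and -0.37 for Nkg7. Nkg7 between alopecia and no alopecia was then -0.12.

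DETC-like cells had Gzmc at 152, 46.8 and 236 CPM in the alopecia, no-alopecia and wild-type libraries. The ratio of alopecia to no alopecia was 3.26 (2.13 to 5.20), beside 10.8% of all genes. Against wild type the ratios were 0.646 (0.534 to 0.781) for alopecia, beside 5.29%, and 0.198 (0.125 to 0.302) for no alopecia, beside 7.69%. In cells classed by marker UMIs the log2 ratios were 0.05, 0.20 and 0.14 in the same order, so none of the 3 calls held there. The DETC rule passed a mixed set of cells. Of these, 439 were DETC-like, 220 dermal gamma delta T-like and 124 from the cluster led by Kcnma1 and Cd209e. That set therefore cannot decide whether the calls hold in DETC-like cells. Prf1 in DETC-like cells had ratios of 1.28 (1.10 to 1.49) between alopecia and no alopecia and 1.23 (1.10 to 1.38) between alopecia and wild type, both within 1.5-fold. In group 2 innate lymphoid-like cells, Nkg7 was at 79.1, 50.5 and 106 CPM in the alopecia, no-alopecia and wild-type libraries. The ratio of alopecia to no alopecia was 1.57 (1.11 to 2.25), beside 12% of all genes, and that of no alopecia to wild type 0.475 (0.330 to 0.669), beside 11.2%.

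The other genes of the pathway were taken from 7 lists with 39 genes, chosen with earlier results of these data known. The lists include Il2ra, the gene whose enhancer was deleted. It is counted among the lower genes in every comparison with wild type below, and its place there is given by the design. Between alopecia and no alopecia over all CD45-positive cells, 1 of 35 tested was higher, the chemokine gene Ccl3 (41.6 and 27.2 CPM, log2 ratio 0.61), and 1 was lower, Gzmf (log2 -0.64), beside 7.38% higher and 5.87% lower among all genes. Between alopecia and wild type, 6 of 34 were lower and 0 higher, beside 4.19% and 8.33% of all genes. These were the cytokine gene Ifng (71.4 CPM in alopecia and 131 CPM in wild type, log2 -0.88), the granzyme inhibitor genes Serpinb9 (-0.68) and Serpinb6b (-0.69), the transcription factor genes Tbx21 (-0.82) and Zfp683 (-0.77), and Il2ra (-0.84). Between no alopecia and wild type, 5 of 34 were lower and 0 higher, beside 5.50% and 7.63% of all genes: Ifng (-1.06), Tnf (-0.61), Il2ra (-0.68), Ccl4 (-0.74) and Ccl5 (-0.88). The list medians of log2 ratios were 0.043, -0.18 and -0.16 in the 3 comparisons, beside medians of 0.076, 0.067 and -0.018 over all genes tested. Of the 10 genes of granule make-up and release, such as Srgn, Lamp1 and Rab27a, 0 passed 1.5-fold in any of the 3 comparisons.

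In CD8 T-like cells, 8 of 30 tested pathway genes were lower in alopecia than in wild type and 2 higher, beside 8.07% and 7.31% of all genes in this class. The inhibitor genes Serpinb9 (70.8 CPM in alopecia and 154 CPM in wild type, log2 -1.12) and Serpinb6b (-1.07) were lower there, as were Il2ra (26.5 and 59.8 CPM, -1.17), the transcription factor genes Prdm1 (-1.95), Zeb2 (-0.63) and Tbx21 (-0.60), and the chemokine genes Ccl4 (-1.17) and Ccl5 (-0.69). The 2 higher were Ctsc, whose protease activates granzymes (143 and 69.6 CPM, log2 1.04), and the cathepsin inhibitor gene Cst7 (0.68). In the Cd40lg and Cd4 cluster, 4 of 30 were lower, beside 3.29% of all genes, namely Serpinb9, Serpinb6b, Zfp683 and Il2ra (log2 -0.90, -0.94, -1.49 and -0.76), and 1 was higher, Ccl4 (0.76), beside 5.27%. In regulatory T-like cells, 5 of 26 were lower, beside 3.15% of all genes, namely Il2ra (-1.27), Ctsw, Fas, Tbx21 and Il15ra (-0.82, -0.63, -1.94 and -0.78), and Ctsc and Ccl4 (0.71 and 0.88) were the 2 higher, beside 4.21%.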

How the data were processed

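Per the file headers, the deposited matrices hold whole-number UMI counts, unnormalized, for 32285 genes. They were made with Cell Ranger 7.1.0 and build mm10, per the submitters' processing notes. The 3 CD45-positive libraries entered the comparisons, and the 3 CD45-negative ones served as background. A cell was kept with 500 or more UMIs, 300 or more genes and no more than 10% of UMIs from mitochondria (4.20%, 1.86% and 3.21% removed in the alopecia, no-alopecia and wild-type libraries), and the highest doublet scores were removed at 0.4% per 1000 barcodes. Cells were clustered on 2000 variable genes without the 8 members and Il2ra, with 30 principal components, 15 neighbours, Leiden resolution 1.0 and seed 0, and lymphoid cells were clustered again. A cluster was named where markers of a class led it, with at least 3 detected.

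UMI sums per class and library were scaled to CPM. Values are given for classes of at least 20 cells, except NK-like cells, and ratios for at least 100 cells in both libraries, with a floor of 3 counts for a sum of 0. For shares, cells were thinned to 1000 UMIs. All 8 members are named, with the 3 genes most alike to each in level and the pathway genes past 1.5-fold in all CD45-positive cells or in the classes described. The members, marker and pathway lists were chosen with earlier results of these data known. The ratio step was run on simulated counts that held counting error alone. It therefore checks the calculation and says nothing about spread between cells or libraries. Clustering used scanpy 1.11.5, igraph 0.11.9 and leidenalg 0.10.2. Sums and intervals used pandas 2.3.3, scipy 1.17.1 and numpy 2.4.6 in Python 3.11.15. Gene positions are from GENCODE vM21 on GRCm38.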

Additional observations from a re-analysis of the deposited data

Results flagged for a closer look

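Some genes had log2 ratios of opposite sign in classes of the same pair of libraries, each past 1.5-fold. None of these differences between classes was tested, since there was 1 library per group. Gzma between alopecia and wild type was at 3.59 in the cluster led by Tyrobp and Ncr1 and at -2.39 in CD8 T-like cells, and the first value rests on 1 cell. Gzmb between alopecia and no alopecia was at 0.984 in the cluster led by Klra1 and Ifng and at -0.924 in dermal gamma delta T-like cells. Gzmb between no alopecia and wild type was at 0.8 in dermal gamma delta T-like cells and at -2.46, -1.59 and -0.824 in the Cd40lg and Cd4 cluster, the cluster led by Slc35f3 and Klra7 and the cluster led by Klra1 and Ifng. Most of these calls depend on a choice of processing: the first was -0.0065 without doublet removal, the Cd40lg and Cd4 cluster came to -0.12 with classes from marker UMIs, and the Klra1 and Ifng cluster to -0.16 as a mean over cells. The Klra1 and Ifng value between alopecia and no alopecia was likewise 0.56 as a mean over cells. Gzmc between alopecia and no alopecia was at 0.682 in the cluster led by Slc35f3 and Klra7 and at 1.7 in DETC-like cells, against -0.94 in dermal gamma delta T-like cells. The DETC-like value was 0.05 with classes from marker UMIs, where the DETC class took in many cells of other clusters. The dermal gamma delta value was -0.13 without the cell of each library with most UMIs.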

How the results depend on the processing

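No paired analysis was possible because each group had 1 library per sort. Gzmb stayed lower than in wild type in both deletion libraries, past 1.5-fold, in all 10 settings tried over all CD45-positive cells, with log2 ratios of -1.57 to -0.92 for alopecia and -1.38 to -0.82 for no alopecia. In CD8 T-like cells the alopecia ratio ran from -2.70 to -2.11 over 12 settings. Leaving out NK-like cells, or the cell of each library with most UMIs, was chosen after seeing the data. Shares of cells with a UMI depended on the depth chosen for thinning. Of 186 such shares, 153 left the interval of the main value with no thinning, 100 at 2000 UMIs and 95 at 500 UMIs.

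Counts of members past 1.5-fold over all CD45-positive cells went to 0 higher for alopecia over no alopecia and for alopecia over wild type without NK-like cells. With each class at its mean share they were 0 higher and 1 lower for alopecia over wild type. For no alopecia over wild type, 1 was lower with lymphoid classes alone or with a fold of 2, and 3 without NK-like cells or with either lower count minimum. With each class at its mean share 2 were lower there, Gzmb and, in place of Fasl, Gzma. Counts of pairs of a class and a member moved with the thresholds. For alopecia over no alopecia they were 3 higher with members among the variable genes, 2 higher and 0 lower with a fold of 2, 10 higher with a count minimum of 20, and 11 higher and 17 lower with no minimum. For alopecia over wild type they were 1 higher with no cell filter, Leiden seed 1, the top cell left out or a fold of 2, 4 higher at resolution 2.0, 6 lower with a fold of 2, and 14 higher and 21 lower with no minimum. For no alopecia over wild type they were 0 higher with classes from marker UMIs or a fold of 2, 5 lower with marker UMIs, 16 lower with a count minimum of 20, and 14 higher and 18 lower with no minimum.

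Pathway counts for alopecia over no alopecia were 0 higher with TMM scaling or a fold of 2, 2 higher at a count minimum of 20, 3 higher with no minimum, and 0 lower with a fold of 2. For alopecia over wild type they were 2 higher with either lower minimum and 0 lower with a fold of 2. For no alopecia over wild type they were 1 higher with either lower minimum and 1 lower with a fold of 2.

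Log2 ratios that changed sign were these, and the cause was not tested. Over all cells, Gzma between alopecia and wild type was -0.11 with each class at its mean share and -0.55 without NK-like cells. With members among the variable genes, Gzmc between alopecia and wild type in the Cd40lg and Cd4 cluster was 0.014 and Gzma between alopecia and no alopecia in the Slc35f3 cluster -1.25 (-1.21 with seed 1). With classes from marker UMIs, Gzmc between alopecia and wild type was 0.65 in the Cd40lg and Cd4 cluster, 0.43 in CD8 T-like and 0.20 in DETC-like cells, Gzmc between no alopecia and wild type 0.14 in DETC-like cells, and Nkg7 between alopecia and no alopecia -0.45 in group 2 innate lymphoid-like cells. Classes from marker UMIs held cells of other clusters too. The DETC rule passed 439 DETC-like and 220 dermal gamma delta T-like cells. The group 2 innate lymphoid rule passed 268 cells of its class and 208 keratinocyte-like cells. Without doublet removal, dermal gamma delta T-like cells had -0.12 for Nkg7 between alopecia and no alopecia, and -0.0065 for Gzmb and 0.87 for Gzmc between no alopecia and wild type. Without the top cell, Gzma between alopecia and wild type was -0.71 in the Tyrobp cluster. Without cells that had T-cell receptor UMIs, cDC2-like cells had 0.53 for Gzmb and 0.95 for Nkg7 between no alopecia and wild type, the Retnla and Lpl cluster 0.079 for Nkg7 between alopecia and wild type, and mast-like cells -2.60 for Gzmc (-0.13 at 0.8% doublets per 1000 barcodes). Values of few UMIs are limited by depth: NK-like cells numbered 76 in all, and Gzmk and Gzmm had under 50 UMIs in most pairs of libraries.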
